A study of Mus musculus with 40 samples.

Results

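The 10 genes described here encode co-stimulatory ligands of antigen-presenting cells and their partners in the TNF receptor superfamily: Cd80, Cd86, Cd40, Icosl, Tnfsf9, Tnfrsf9, Tnfsf4, Tnfrsf1b, Cd83 and Slamf7. They were chosen by name, with earlier results of these data known, and all 10 were found among the 54513 rows of each expression table. RNA was sequenced from myeloid cells of the brain, FACS-sorted as CD11b+ from tumor-bearing or naive hemispheres of male mice aged 10 to 12 weeks. Of the 40 samples of the series, 35 had a column in the tables, while naive nude mice and sample 4 of both groups given anti-PD-1 were not analysed here. In the first experiment, C57BL/6 mice carried GL261, a murine glioma line expressing tdTomato and luciferase, and received vehicle (water), 7aaRGD or 7aaRAE through an osmotic pump into the tumor until 21 days post-implantation (DPI). 7aaRGD is a peptide with the integrin-binding RGD motif, 7aaRAE carries RAE in its place, and both were given at 2 mg/ml. These 3 groups and a naive group had 3 samples each, and each sample pooled 2 animals. In the second experiment, GL261-bearing mice were sorted at 28 DPI after vehicle (4 samples), 7aaRGD (4), anti-PD-1 (3) or the combination of 7aaRGD and anti-PD-1 (3), with 1 animal per sample. The anti-PD-1 antibody was injected 4 times from day 8 to day 14, at a dose of 10 mg/kg, and control groups received IgG. The sample titles of this experiment say nude mice, while the study's methods give C57BL/6 mice as hosts of GL261. In the third experiment, Athymic Nude-Foxn1nu mice carried U87-MG, a human glioma line expressing RFP, and received vehicle, 7aaRGD or 7aaRAE until 21 DPI, with 3 samples per group and 2 animals per sample. Nude mice lack a thymus and with it most T cells.

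T cells need a second signal beside the antigen, and antigen-presenting cells give it through ligands on their surface. CD80 and CD86, encoded by Cd80 and Cd86, bind CD28 and the inhibitory receptor CTLA4 on T cells, and ICOS ligand, encoded by Icosl, binds ICOS. CD40, encoded by Cd40, sits on the antigen-presenting cell itself and is triggered by the CD40 ligand of T helper cells. Tnfsf9 encodes the ligand of CD137, Tnfrsf9 encodes CD137 itself, a receptor known from activated T and NK cells and also found on activated myeloid cells, and Tnfsf4 encodes the OX40 ligand. Tnfrsf1b encodes the second TNF receptor, TNFR2. CD83, encoded by Cd83, is a surface marker of activated dendritic cells that is also made by microglia, and SLAMF7, encoded by Slamf7, is a self-binding receptor of the SLAM family on macrophages, NK and plasma cells.

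On mm10, the genes lie on 7 chromosomes. The CD28 ligand genes Cd80 (chr16:38455561-38496335, plus strand) and Cd86 (chr16:36603869-36666081, minus strand) share chromosome 16. Tnfrsf9 (chr4:150914562-150946102, plus strand) and Tnfrsf1b (chr4:145213463-145246870, minus strand) share chromosome 4, and Slamf7 (chr1:171632403-171653035, minus strand) and Tnfsf4 (chr1:161395409-161418410, plus strand) share chromosome 1. Cd40 is at chr2:165055627-165072948, Icosl at chr10:78069302-78083913, Tnfsf9 at chr17:57105325-57107757 and Cd83 at chr13:43784775-43803132, all on the plus strand.

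Promoter sequence was at hand for 5 of the 10 genes, with 6 start sites, in RefSeq's tables of build GRCm38.p6. The 250 bases before each start were searched on both strands for 4 motifs of factors known from immune activation. These were the GAS element TTCNNNGAA of STAT dimers, the ISRE core of interferon-regulated factors, read as GAAA and GAAA with any 2 bases between, the kappaB consensus of NF-kappaB, and the AP-1 element, searched as TGACTCA or TGAGTCA, which are the same letters on opposite strands. Of all 32851 promoters in the table, 7.02% held the GAS element, 2.98% the ISRE core, 3.90% the kappaB consensus and 4.46% the AP-1 element in the same window. Matches were found at 3 of the 6 starts, at Slamf7, Tnfrsf1b and the second start of Tnfrsf9. The share of all promoters with any of the 4 motifs is not given here. These 3 genes were higher with the combination treatment than with vehicle, as were Cd40 and Cd86, for which no promoter was at hand. A relation of matches to levels was not tested. The 200 bases before the start are shown from 5′ to 3′ on the gene's strand, with motif matches in capitals. The stretches lie at chr1:171649000-171649199 (minus strand) for Slamf7, chr4:145246871-145247070 (minus strand) for Tnfrsf1b and chr4:150927799-150927998 (plus strand) for Tnfrsf9. Those of Slamf7 and Tnfrsf9 lie within the gene spans given above, so these starts are internal to those spans.
Slamf7: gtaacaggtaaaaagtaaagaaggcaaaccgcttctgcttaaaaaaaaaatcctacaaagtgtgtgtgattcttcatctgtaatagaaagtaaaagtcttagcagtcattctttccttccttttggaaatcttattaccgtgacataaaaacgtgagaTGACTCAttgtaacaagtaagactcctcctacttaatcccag
Tnfrsf1b: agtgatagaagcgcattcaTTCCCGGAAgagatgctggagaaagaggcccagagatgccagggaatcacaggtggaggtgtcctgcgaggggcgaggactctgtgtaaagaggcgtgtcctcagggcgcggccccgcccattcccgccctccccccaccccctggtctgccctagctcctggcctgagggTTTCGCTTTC
Tnfrsf9, the second start: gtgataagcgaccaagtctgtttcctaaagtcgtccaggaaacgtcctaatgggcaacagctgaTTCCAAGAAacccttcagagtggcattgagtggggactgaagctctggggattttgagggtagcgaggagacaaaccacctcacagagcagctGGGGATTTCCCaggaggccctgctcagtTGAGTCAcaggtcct
In Slamf7, the capitals mark an AP-1 element at positions -42 to -36 from the start. In Tnfrsf1b, they mark a GAS element at -181 to -173 and, read on the opposite strand, an ISRE core at -10 to -1. In Tnfrsf9, they mark a GAS element at -136 to -128, a pair of overlapping kappaB matches at -43 to -34 and -42 to -33, and an AP-1 element at -15 to -9. The first start of Tnfrsf9 and the starts of Icosl and Cd80 held none of these letters in the window. A match describes the sequence and was not tested for binding or use in these cells.

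The deposited values were RPKM, read counts scaled to transcript length and library size, plus a constant of 2, and the constant was subtracted. Because RPKM is per length, levels can be compared between genes. The tables give no read totals, so the depth is unknown. Per sample, 9330 to 9823 protein-coding genes reached 1 RPKM. The tables were normalized separately, so levels from different experiments are set side by side without a test. Groups were compared with limma on log2(RPKM + 1) over all protein-coding genes that averaged 1 RPKM or more, and a gene was called at an adjusted p under 0.05. Of the 10 genes, 9 passed this filter in both GL261 tables and 7 in the U87-MG table. Tnfsf4 passed in none, and Tnfrsf9 and Slamf7 did not pass with U87-MG. A bulk sample cannot tell fewer cells of a type apart from less RNA per cell. Markers of the sorted population were present throughout: Itgam, which encodes CD11b, and Ptprc, Csf1r and Aif1 each averaged over 1 RPKM in every group. Their sums were 3293 to 3368 RPKM in naive brain and 1033 to 1138 RPKM in GL261 vehicle samples at 21 DPI. Between these groups, 2 of the 4 genes were called as higher and 2 as lower in the tumor.

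In every group of every experiment, Tnfrsf1b had the highest level of the 10 genes and Tnfsf4 the lowest. Mean Tnfrsf1b levels ran from 127 RPKM, in the 28 DPI vehicle group, to 248 RPKM, in the 21 DPI 7aaRAE group. Tnfsf4 stayed at or under 0.366 RPKM in all samples. The genes in between changed places with the experiment. In naive brain, Cd86 (72.6 ± 2.16 RPKM, SD, n = 3), Cd83 (59.6 ± 2.63) and Icosl (34.0 ± 0.297) followed Tnfrsf1b, while Cd40 stood at 0.290 ± 0.0313. In vehicle-treated GL261 tumors at 21 DPI, Slamf7 was the third and Cd40 the fifth of the 10.

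**Figure D1:**
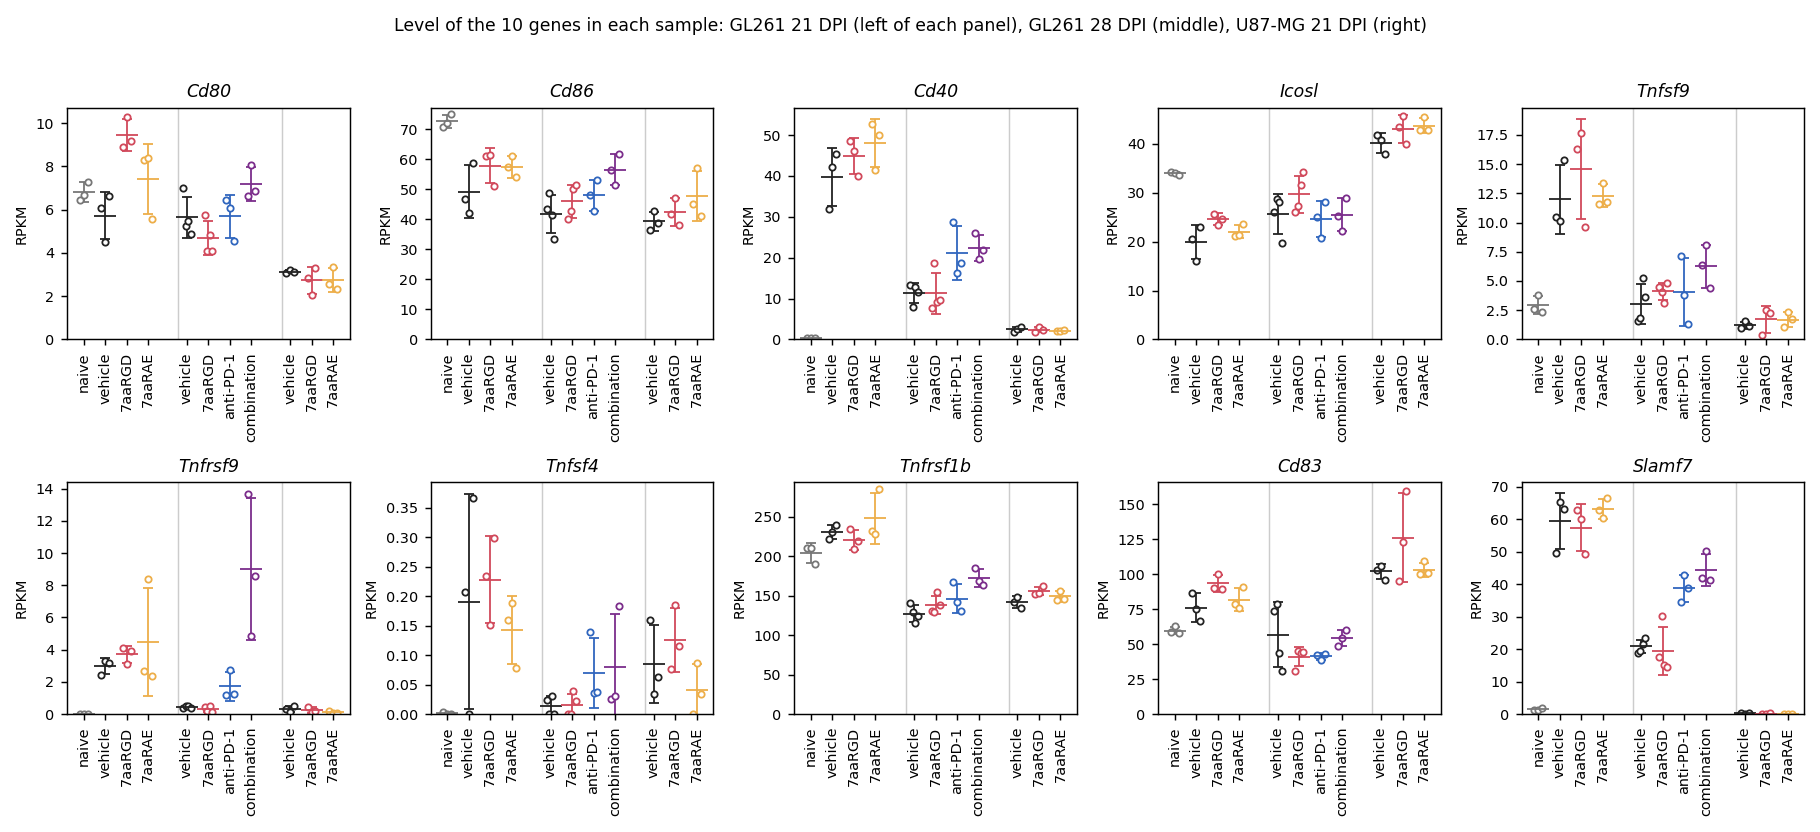
RPKM (linear axes starting at 0) of each of the 10 genes in every sample (circles), with the group mean and SD (bar), for GL261 at 21 DPI, GL261 at 28 DPI and U87-MG at 21 DPI. Cd40 and Slamf7 are at or under 2.98 RPKM in naive mice and in the U87-MG vehicle samples and reach 31.8 to 52.7 and 49.1 to 66.5 RPKM in the GL261 tumors at 21 DPI, while Tnfrsf9 is highest in the 28 DPI combination samples and in 1 sample of 7aaRAE.

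CD11b+ cells of vehicle-treated GL261 tumors differed from those of naive brain in 8 of the 9 genes tested. Cd40, Slamf7, Tnfrsf9, Tnfsf9, Cd83 and Tnfrsf1b were higher in the tumor, and the CD28 and ICOS ligands Cd86 and Icosl were lower. Most genes differed in this comparison: 82.8% of the 9731 genes tested were called, 34.6% as higher and 48.2% as lower, so the 8 of 9 were close to the share of all genes. Their median log2 fold change was 0.34, against -0.14 over all genes. Rescaling the samples by the median of ratios moved the all-gene median to 0.0051 and the number of called genes among the 10 stayed at 8.

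Cd40, the receptor for T-cell help, had the largest difference. It was at 0.299, 0.255 and 0.316 RPKM in the naive samples and at 31.8, 42.2 and 45.3 RPKM in the vehicle samples. The lowest tumor sample was far above the highest naive sample, with a log2 fold change of 4.97 (SE 0.12, adjusted p = 1.64e-08). Slamf7, the SLAM family receptor, was at 1.34, 1.40 and 1.74 RPKM in naive brain and at 49.5, 65.3 and 63.2 RPKM in the tumor. The groups stood 39.8-fold apart in their means, with a log2 fold change of 4.59 (SE 0.11, adjusted p = 1.68e-08).

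Both members of the CD137 pair were higher in the tumor. The receptor Tnfrsf9 was listed at 0, 0.00744 and 0.0311 RPKM in the naive samples and at 2.42, 3.31 and 3.19 RPKM in the vehicle samples, a log2 fold change of 1.97 (SE 0.097, adjusted p = 4.37e-07) that the added 1 RPKM keeps small. Its ligand Tnfsf9 was already present in naive brain, at 2.36 to 3.81 RPKM, and reached 10.5, 10.1 and 15.4 RPKM in the tumor. No tumor sample of the ligand overlapped a naive one (log2 fold change 1.72, SE 0.18, adjusted p = 3.37e-05). The OX40 ligand Tnfsf4 was at 0.00323, 0 and 0 RPKM in naive brain and at 0.207, 0 and 0.366 RPKM in the tumor, too low for a test.

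The ligands of CD28 and ICOS did not follow this direction. Cd86 fell from 70.8, 72.1 and 75.0 RPKM in naive samples to 46.7, 42.0 and 58.8 RPKM in vehicle samples (log2 fold change -0.57, SE 0.11, adjusted p = 0.00170). Icosl fell from 34.3, 34.0 and 33.7 RPKM to 20.5, 16.1 and 23.0 RPKM (log2 fold change -0.76, SE 0.11, adjusted p = 0.000328). For both, the groups did not overlap. Cd80 stood much lower than Cd86 and was not called, with 6.44, 6.70 and 7.30 RPKM in naive samples against 6.06, 4.50 and 6.62 RPKM in vehicle samples. Without vehicle sample 3, the highest of its group, Cd80 was called as lower (log2 fold change -0.33, adjusted p = 0.0275).

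Cd83 and Tnfrsf1b were abundant in both groups and differed by less. Cd83 was at 58.4, 62.6 and 57.7 RPKM in naive samples and 86.7, 74.7 and 66.7 RPKM in vehicle samples (log2 fold change 0.34, SE 0.094, adjusted p = 0.00947). Tnfrsf1b was at 211, 211 and 189.9 RPKM in naive samples and 222, 231 and 239.7 RPKM in vehicle samples. The groups were separate for both genes, but the Tnfrsf1b difference was small (log2 fold change 0.18, SE 0.066, adjusted p = 0.0349). Its call was lost without naive sample 2 (adjusted p = 0.0547), naive sample 3 (0.123), vehicle sample 2 (0.0585) or vehicle sample 3 (0.0829), and also with 1 residual degree of freedom fewer (0.0803), with all 4 groups fitted (0.0758) and without a filter on low values (0.0520).

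Markers of several cell types differed in the same comparison. All 8 microglia markers were lower in the tumor, where their summed level ran from 1294 to 1882 RPKM against 15638 to 16190.3 RPKM in naive brain. All 7 markers of monocytes and macrophages were higher, with sums of 5630.1 to 5903 RPKM against 387 to 427 RPKM. Of the dendritic cell markers, 2 of 3 tested were higher, with sums of 30.9 to 52.3 RPKM against 15.5 to 19.2 RPKM. Of the 4 mature dendritic cell markers, 3 were higher and 1 lower, with sums of 140.4 to 146 RPKM in the tumor against 426 to 456 RPKM in naive brain. Of the 4 neutrophil markers tested 2 were lower, with sums of 47.4 to 164 RPKM against 225 to 313 RPKM, and the 1 B cell marker tested was lower. The summed T cell markers were at most 0.988 RPKM in naive samples and 0.772 to 4.05 RPKM in vehicle samples, and those of NK cells went from 0.244 to 0.469 RPKM up to 4.53 to 14.8 RPKM. Those of plasma cells, a known source of Slamf7, summed to at most 0.105 RPKM in naive brain and to 4.22 to 5.94 RPKM in the tumor. Only 1 of the 3 plasma cell markers passed the filter, and it was called as higher. What these cells contribute to the levels of the 10 genes was not tested.

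At 21 DPI, none of the 9 genes tested was called between 7aaRGD and vehicle, where 0.148% of the 9444 genes tested were called. Among them, Cd80, Cd83 and Icosl had an unadjusted p under 0.05, as did 13.6% of all genes tested, and all 3 had higher levels with 7aaRGD. Cd80 was at 8.90, 10.3 and 9.16 RPKM with 7aaRGD, above every vehicle and naive sample (log2 fold change against vehicle 0.65, SE 0.16, adjusted p = 0.167). Cd83 was at 90.1, 100.3 and 89.6 RPKM with 7aaRGD, also without overlap with vehicle (log2 fold change 0.30, SE 0.11, adjusted p = 0.290). Icosl was at 25.7, 23.4 and 24.7 RPKM with 7aaRGD, just above the highest vehicle sample at 23.0 RPKM (log2 fold change 0.31, SE 0.11, adjusted p = 0.295). None of the 3 reached the threshold in any fit that left out a sample, with adjusted p down to 0.0779 for Cd80. A noise test modelled on NOISeq, with calls at a probability over 0.8, was run on the same samples. It called the same 3 genes, at 0.864 for Cd80, 0.855 for Cd83 and 0.811 for Icosl, and 383 of the 9444 genes in all. No marker gene of any cell type list was called between 7aaRGD and vehicle. The summed NK cell markers overlapped, at 12.2 to 29.9 RPKM with 7aaRGD against 4.53 to 14.8 RPKM with vehicle. Those of T cells were at 4.16 to 9.86 RPKM against 0.772 to 4.05 RPKM, and those of microglia at 1945 to 2585 RPKM against 1294 to 1882 RPKM. Median log2 fold changes were -0.42 for neutrophil, -0.25 for B cell and -0.12 for plasma cell markers, and positive for the other lists. The relation of these markers to the levels of the 10 genes was not tested.

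The control peptide gave no call among the 9 genes against vehicle, with 0% of all genes called by limma and 601 of 9444 at an unadjusted p under 0.05, none of them among the 9. The noise test called 1 of the 9, Cd40, at a probability of 0.822, and 245 of the 9444 genes in all. All 9 genes had a positive log2 fold change with 7aaRAE, with a median of 0.15 against 0.0048 over all genes. The comparison shares its vehicle samples with that of 7aaRGD. The 2 peptides were therefore also compared directly, at the same dose and time, and differ by the change of the RGD motif to RAE. Again none of the 9 genes was called, with 0% of all genes called and 521 at an unadjusted p under 0.05. Cd80 was at 8.32, 8.41 and 5.55 RPKM with 7aaRAE, so that every 7aaRGD sample was higher, with a 95% interval of the log2 difference from -0.023 to 0.68. For Cd86, with 57.8 ± 5.88 RPKM for 7aaRGD and 57.5 ± 3.64 RPKM for 7aaRAE, the interval ran from -0.27 to 0.28. Tnfrsf9 was at 2.69, 8.37 and 2.37 RPKM with 7aaRAE, where 1 sample stood far above the other 2 and above every 7aaRGD sample (3.11 to 4.10 RPKM). Its interval was correspondingly wide, from -0.79 to 0.67. The narrowest intervals were those of Tnfrsf1b, from -0.37 to 0.048, and Cd83, from -0.046 to 0.43, so differences of up to these sizes remain possible. Cd40 was at 48.5, 46.2 and 39.9 RPKM with 7aaRGD and 52.7, 41.5 and 50.0 RPKM with 7aaRAE, and Slamf7 at 62.9, 60.0 and 49.1 RPKM and 62.8, 60.3 and 66.5 RPKM, with overlap in both genes.

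**Figure D2:**
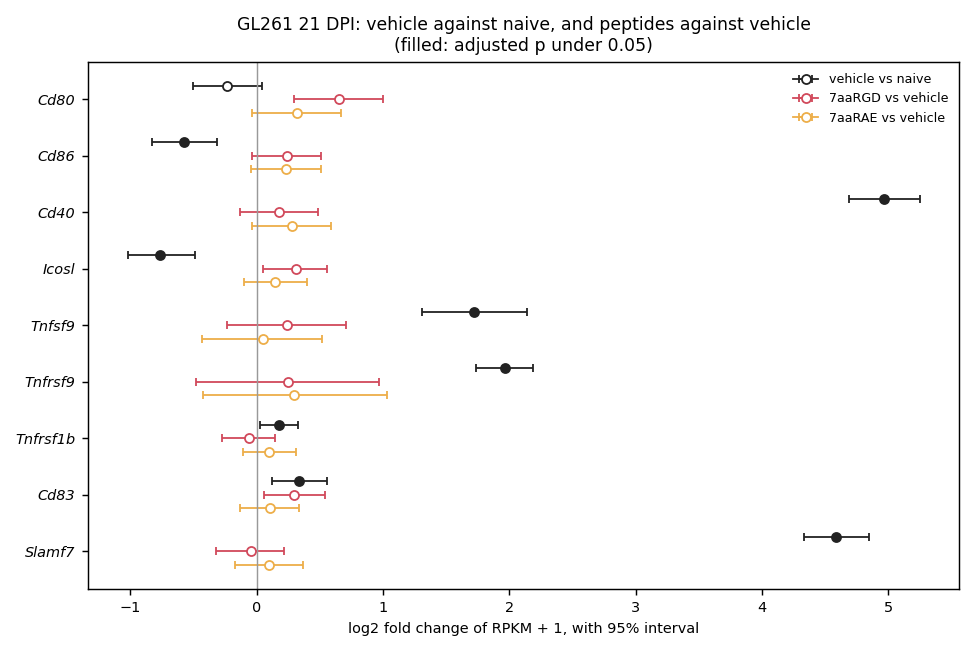
Log2 fold change of RPKM + 1 with its 95% interval for the 9 tested genes in GL261 tumors at 21 DPI: vehicle against naive mice (black), 7aaRGD against vehicle (red) and 7aaRAE against vehicle (yellow), with filled points at an adjusted p under 0.05. The black points of Cd40 and Slamf7 lie at 4.97 and 4.59, and all peptide points are open; Tnfsf4 was under the filter and is not drawn.

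At 28 DPI, levels in vehicle-treated GL261 tumors were 20.8 ± 2.04 RPKM for Slamf7, 11.4 ± 2.44 for Cd40, 3.04 ± 1.71 for Tnfsf9 and 0.448 ± 0.0629 for Tnfrsf9 (SD, n = 4). The 21 DPI vehicle means of Slamf7, Cd40 and Tnfrsf9 stood at 59.3, 39.8 and 2.97 RPKM, and their Tnfsf9 samples at 10.1 to 15.4 RPKM, in a table that was normalized separately. The summed monocyte and macrophage markers were also lower in the later table, at 2655 to 3181 RPKM in vehicle samples. So were those of dendritic cells (2.53 to 6.35 RPKM), mature dendritic cells (11.6 to 22.7) and plasma cells (0.284 to 1.14). Sums of the other lists overlapped between the tables, among them microglia (1533 to 2167 RPKM) and neutrophils (143 to 287). The relation of these sums to the levels of the 10 genes was not tested. The 7aaRGD peptide alone gave no call among the 9 genes, where 0.647% of the 9740 genes tested were called and 1423 had an unadjusted p under 0.05. Their median log2 fold change was -0.072, against 0.015 over all genes.

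With anti-PD-1 alone, 3 of the 9 genes were higher than with vehicle and none was lower, against 23.1% of all genes called and 10.8% called as higher. These were Slamf7, Tnfrsf9 and Cd40. With the combination, 5 of 9 genes were higher than with vehicle and none was lower, against 43.3% of all genes called and 17.5% called as higher. The 3 genes were joined by Tnfrsf1b and Cd86. Against 7aaRGD alone, the combination was higher in 5 of 9 genes as well, Tnfrsf9, Slamf7, Cd80, Cd40 and Tnfrsf1b, against 36.6% of all genes called and 13.0% called as higher. Under median-of-ratios scaling the share of higher calls among all called genes went from 40.5% to 51.0% for the combination against vehicle and from 35.6% to 51.2% against 7aaRGD. Between the combination and anti-PD-1 alone, 1 of 9 genes was called, Tnfrsf9, where 0.0411% of all genes, 4 of 9740, were called. The comparisons with vehicle share the same 4 vehicle samples, so their results are not independent of each other.

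Tnfrsf9, which encodes CD137, had the largest differences. It was at 0.390, 0.493, 0.511 and 0.397 RPKM with vehicle and at 0.426, 0.171, 0.518 and 0.158 RPKM with 7aaRGD, all under the 1.19, 2.75 and 1.22 RPKM of the anti-PD-1 samples. The combination samples were at 13.7, 4.86 and 8.56 RPKM, each above every sample of the other groups. The groups with antibody were thus separate from those without it and from each other. The log2 fold change of the combination was 2.69 against vehicle (SE 0.25, adjusted p = 5.48e-06), 2.84 against 7aaRGD (SE 0.25, adjusted p = 1.57e-05) and 1.83 against anti-PD-1 (SE 0.27, adjusted p = 0.0348), where the means stood 5.25-fold apart. Anti-PD-1 alone differed from vehicle by 0.86 (SE 0.25, adjusted p = 0.0263). The calls of the combination against vehicle and 7aaRGD held in 7 of 7 fits that each left out 1 sample. That of the combination against anti-PD-1 was lost without anti-PD-1 sample 1 (adjusted p = 0.0919), anti-PD-1 sample 3 (0.0987), combination sample 1 (0.0769) or combination sample 3 (0.178), when only these 2 groups were fitted (0.198), with 1 residual degree of freedom fewer (0.0730), with a pseudocount of 0.1 (0.0631) and over all named rows (0.0519). That of anti-PD-1 against vehicle was lost without anti-PD-1 sample 2 (0.135), vehicle sample 1 (0.0576) or vehicle sample 4 (0.0531), with a pseudocount of 5 (0.171) and without a filter on low values (0.0510). The ligand of CD137, Tnfsf9, was at 1.58, 1.79, 5.22 and 3.59 RPKM with vehicle and 6.34, 8.05 and 4.38 RPKM with the combination, and these groups overlapped. Its log2 fold change of 0.91 passed at an unadjusted p under 0.05 but was not called (SE 0.37, adjusted p = 0.0648), and was called without vehicle sample 3 (adjusted p = 0.0257), under median-of-ratios scaling (0.0468) and when only these 2 groups were fitted (0.0391). Under that scaling 7 of the 9 genes were called in this comparison, with Tnfsf9 and Cd80 added. The ligand was at 4.47, 4.07, 3.14 and 4.87 RPKM with 7aaRGD and at 7.16, 3.76 and 1.33 RPKM with anti-PD-1.

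An interaction term asked whether the combination differed from the sum of its 2 treatments on the log2 scale. It was called for none of the 9 genes, with 0% of all genes called and 8.14% at an unadjusted p under 0.05. Tnfrsf9 and Cd80 were the 2 genes among the 9 with an unadjusted p under 0.05. The term was 1.98 for Tnfrsf9 (SE 0.36, adjusted p = 0.281), and of 14 fits with a sample left out it passed the threshold in 1, without combination sample 2 (adjusted p = 0.0291), the lowest of its group. For Cd80 it was 0.52 (SE 0.19, adjusted p = 0.588).

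Slamf7 was at 18.8, 19.5, 21.7 and 23.3 RPKM with vehicle, at 34.4, 42.8 and 38.9 RPKM with anti-PD-1 and at 41.8, 50.1 and 41.4 RPKM with the combination. Every antibody-treated sample was above every vehicle sample. In the 7aaRGD group 3 samples were at 17.6, 15.1 and 14.5 RPKM and the remaining one reached 30.2 RPKM. The log2 fold change was 0.86 for anti-PD-1 (SE 0.19, adjusted p = 0.00638) and 1.06 for the combination against vehicle (SE 0.19, adjusted p = 0.000725), and both calls held in 7 of 7 fits with a sample left out. Against 7aaRGD the combination was higher by 1.21 (SE 0.19, adjusted p = 0.000449). The combination and anti-PD-1 alone overlapped, with a 95% interval of the log2 difference from -0.25 to 0.63.

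Cd40 had much the same order of groups. It was at 13.4, 7.95, 12.8 and 11.5 RPKM with vehicle, at 28.7, 16.2 and 18.6 RPKM with anti-PD-1 and at 26.0, 19.6 and 21.8 RPKM with the combination. The antibody-treated samples did not overlap vehicle, while 7aaRGD sample 2, at 18.6 RPKM, stood above its group (7.60, 9.26 and 9.54 RPKM) and was also the highest 7aaRGD sample of Slamf7. The log2 fold change was 0.82 for anti-PD-1 (SE 0.26, adjusted p = 0.0372) and 0.93 for the combination against vehicle (SE 0.26, adjusted p = 0.0111), and 1.00 for the combination against 7aaRGD (SE 0.26, adjusted p = 0.00936). The anti-PD-1 call was lost without anti-PD-1 sample 1 (adjusted p = 0.155), anti-PD-1 sample 3 (0.0588), vehicle sample 2 (0.0974) or vehicle sample 4 (0.0644), with 1 residual degree of freedom fewer (0.0516) and without a filter on low values (0.0688). The call of the combination against vehicle was lost without combination sample 1 (0.0508), and that against 7aaRGD held in 7 of 7 fits. Between the combination and anti-PD-1 the 95% interval of the log2 difference of Cd40 ran from -0.49 to 0.71.

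Tnfrsf1b, the gene of TNFR2, moved within a narrow range at its high level. It was at 141, 129.5, 115 and 124 RPKM with vehicle, at 131, 129.5, 155 and 138 RPKM with 7aaRGD, at 167, 142 and 130.4 RPKM with anti-PD-1 and at 185, 169 and 163 RPKM with the combination. The combination samples were above all vehicle and 7aaRGD samples and overlapped anti-PD-1. The log2 fold change was 0.44 against vehicle (SE 0.096, adjusted p = 0.00276), a call that held in 7 of 7 fits. Against 7aaRGD it was 0.32 (SE 0.096, adjusted p = 0.0212), lost without 7aaRGD sample 1 (0.0524) or combination sample 1 (0.0932). Against anti-PD-1 it was 0.24 (SE 0.10), with an unadjusted p under 0.05 and no call (adjusted p = 0.292).

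The CD28 ligands were separated by level and by comparison. Cd86 was at 43.5, 48.7, 41.4 and 33.5 RPKM with vehicle and at 56.5, 51.3 and 61.6 RPKM with the combination. These groups did not overlap, with a log2 fold change of 0.43 (SE 0.12, adjusted p = 0.0129) that was not called without combination sample 3 (adjusted p = 0.0605). The 7aaRGD samples, at 40.2, 42.6, 49.9 and 51.4 RPKM, overlapped both, and the combination was higher than they were by 0.29 (SE 0.12, adjusted p = 0.0828). Cd80 was at 6.99, 5.23, 5.47 and 4.87 RPKM with vehicle, at 5.77, 4.10, 4.84 and 4.11 RPKM with 7aaRGD, at 6.44, 6.10 and 4.55 RPKM with anti-PD-1 and at 6.62, 8.08 and 6.85 RPKM with the combination. The combination samples of Cd80 were above all anti-PD-1 samples, with a 95% interval of the log2 difference from -0.011 to 0.60, and above all 7aaRGD samples (log2 fold change 0.53, SE 0.13, adjusted p = 0.00822, held in 7 of 7 fits). Against vehicle the difference was 0.31 (SE 0.13), which was not called (adjusted p = 0.0781) unless vehicle sample 1 was left out (0.0269) or the samples were rescaled by the median of ratios (0.0477).

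With limma and all samples, Icosl, Cd83 and Tnfsf4 gave no call between treatments at 28 DPI. Icosl, the ICOS ligand, had group means between 24.6 and 29.7 RPKM, with overlap between all neighbouring groups. Cd83 had its widest spread in vehicle samples, at 73.4, 78.6, 43.8 and 30.5 RPKM, while the anti-PD-1 samples lay between 38.4 and 43.1 RPKM and the combination samples between 48.6 and 59.8 RPKM. Without vehicle sample 4, the lowest, Cd83 was called as lower with anti-PD-1 (log2 fold change -0.60, adjusted p = 0.0482). The combination samples of Cd83 were above all anti-PD-1 and 7aaRGD samples, with no limma call in either comparison. The noise test called Cd83 in both, at probabilities of 0.870 and 0.854, and in 7aaRGD and anti-PD-1 alone against vehicle, at 0.890 and 0.897. Over all genes tested, it called 414 for the combination against anti-PD-1 and 1452 against 7aaRGD. Against vehicle, it called 221 for 7aaRGD and 1206 for anti-PD-1. Tnfsf4 was between 0 and 0.183 RPKM in all 14 samples.

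**Figure D3:**
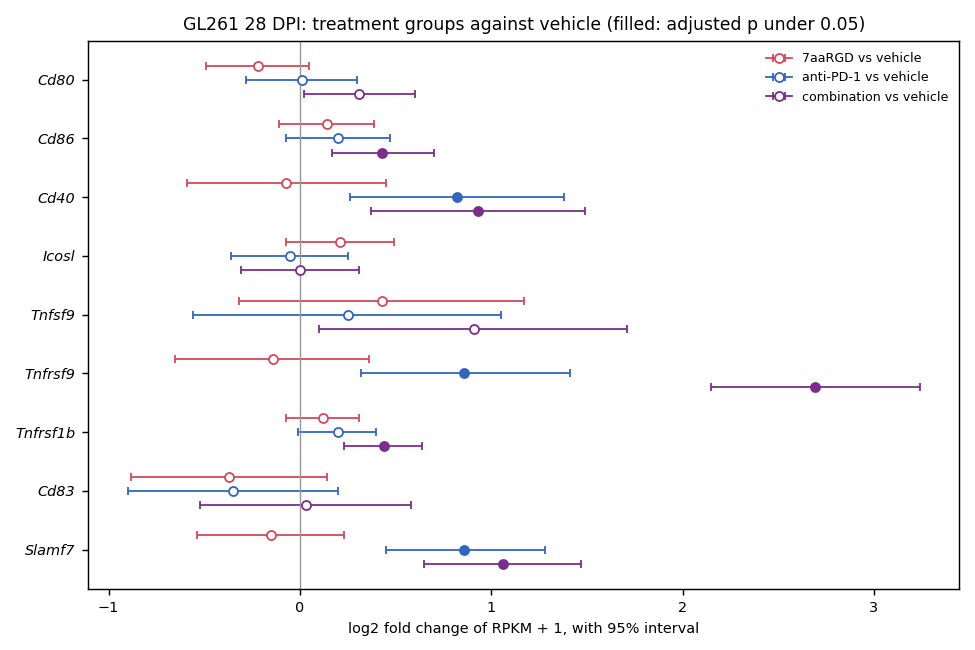
Log2 fold change of RPKM + 1 with its 95% interval for the 9 tested genes in GL261 tumors at 28 DPI: 7aaRGD (red), anti-PD-1 (blue) and combination (purple), each against the same 4 vehicle samples, with filled points at an adjusted p under 0.05. Slamf7, Tnfrsf9 and Cd40 are filled for anti-PD-1 and, with Tnfrsf1b and Cd86, for the combination, where Tnfrsf9 lies at 2.69; no 7aaRGD point is filled, and Tnfsf4 is not drawn.

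**Figure D4:**
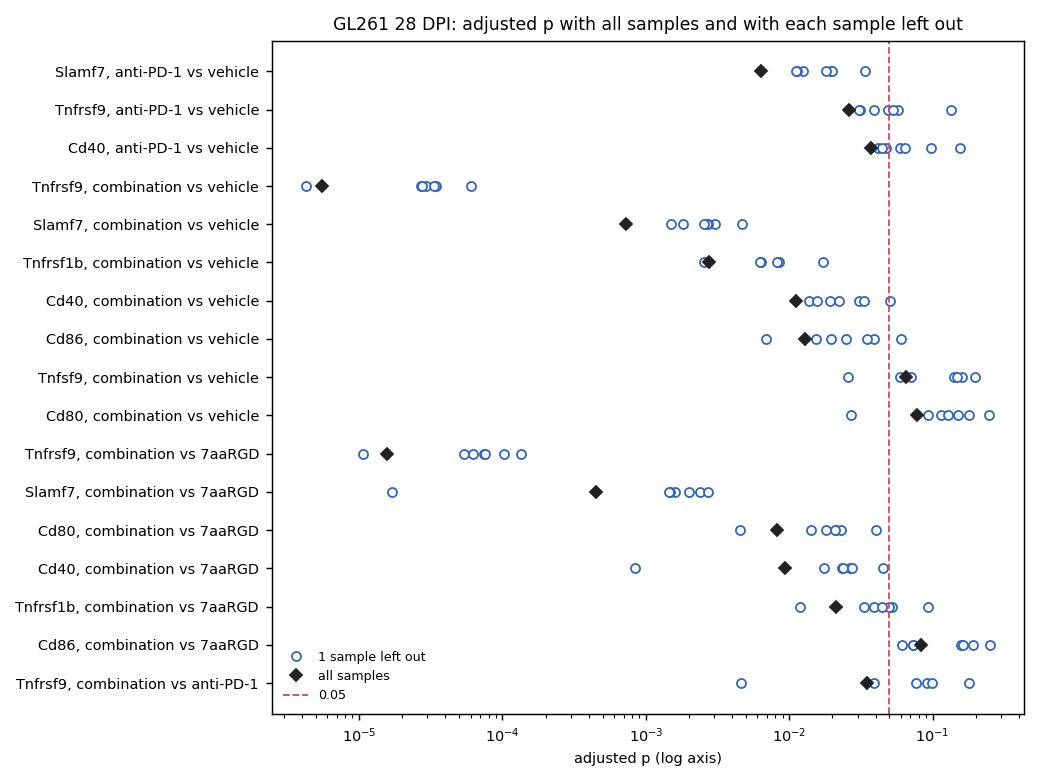
Adjusted p (log axis) of the comparisons at 28 DPI with all samples (black diamonds) and with each sample left out in turn (blue circles), with the threshold of 0.05 as a dashed line. All circles of Slamf7 stay under 0.05 in its 3 comparisons, while those of Cd40 and Tnfrsf9 for anti-PD-1 against vehicle reach 0.155 and 0.135.

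Markers of several cell types differed between treatments at 28 DPI. The summed monocyte and macrophage markers were at 2655 to 3181 RPKM with vehicle, 2387 to 3509 with 7aaRGD, 4071 to 6238 with anti-PD-1 and 5567 to 7396 with the combination, and 4 of their 7 genes were called as higher in each antibody group against vehicle. All 4 markers of the mature dendritic cell list were called as higher in both antibody groups. Their sums were 11.6 to 22.7 RPKM with vehicle, 26.1 to 41.9 with anti-PD-1 and 62.4 to 68.7 with the combination. In naive brain of the first experiment, normalized separately, the same sum was 426 to 456 RPKM. There 2 of the 4 genes were over 1 RPKM in all samples, so the list may not be specific to mature dendritic cells. The summed NK cell markers were at 1.83 to 8.02 RPKM with vehicle, 1.24 to 7.44 with 7aaRGD, 1.50 to 46.1 with anti-PD-1 and 17.1 to 60.8 with the combination. Against vehicle, 3 of 4 NK cell genes tested were called as higher with the combination and none with anti-PD-1. The summed T cell markers stayed at or under 1.87 RPKM without the antibody and were 1.02 to 4.21 RPKM with anti-PD-1 and 2.88 to 4.44 with the combination, with none of the 7 markers over the filter. The plasma cell list held 1 gene over the filter, called as higher with the combination, with sums of 0.284 to 1.14 RPKM with vehicle and 2.71 to 7.43 with the combination, and Mzb1 was listed at 0 in all 14 samples. Dendritic cell markers summed to 2.53 to 6.35 RPKM with vehicle, 6.19 to 21.1 with anti-PD-1 and 12.5 to 19.7 with the combination, where both genes tested were called as higher, against 1 of 2 with anti-PD-1. With the combination, 5 of 8 microglia markers were also called as higher than with vehicle, with sums of 2281 to 2431 RPKM against 1533 to 2167 RPKM, as were 3 of the 4 markers of the sorted population, with sums of 1262 to 1394 RPKM against 965 to 1238 RPKM. With anti-PD-1 alone, 1 gene of each of these lists was called as higher. With 7aaRGD alone, 1 microglia marker was called as higher and none of the sorted population. The microglia sums were 1782 to 3142 RPKM with 7aaRGD, which reached above those of the combination. Of 4 neutrophil markers tested, 1 was called as lower with the combination, with sums of 73.5 to 186 RPKM against 143 to 287 RPKM. Markers of B cells and oligodendrocytes gave no call between treatments. Between the combination and anti-PD-1 no marker gene was called. The share of each cell type in the levels of the 10 genes was not tested.

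**Figure D5:**
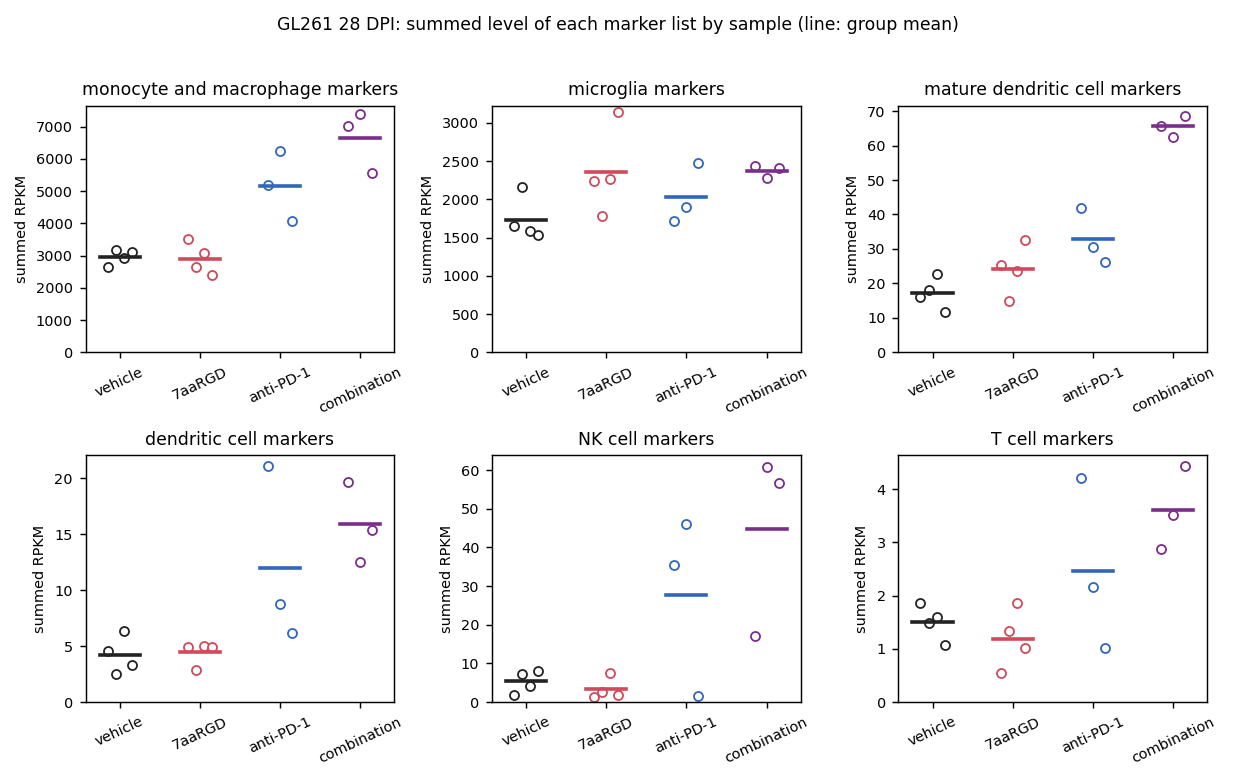
Summed RPKM (axes starting at 0) of 6 marker lists in each GL261 sample at 28 DPI (circles), with the group mean (line). The sums of the mature dendritic cell list, which may not be specific to these cells, separate the combination (62.4 to 68.7 RPKM) from vehicle (11.6 to 22.7 RPKM). The monocyte and macrophage sums of the antibody groups lie above vehicle. The microglia sums of the combination (2281 to 2431 RPKM) lie above those of vehicle (1533 to 2167 RPKM) and overlap those of 7aaRGD.

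Other genes of the same families were read from 5 lists with 53 genes: the B7 and CD28 family, TNF ligands, TNF receptors, the SLAM family, and the TRAF adaptors and linked ubiquitin ligases and kinase that carry TNF receptor signals. In vehicle-treated tumors at 21 DPI against naive brain, 23 of the 35 genes tested were higher and 6 lower, with a median log2 fold change of 0.54. Over all 9731 genes, 34.6% were higher and 48.2% lower, 82.8% together, with a median of -0.14. Of 8 TNF ligands tested, 7 were higher. Tnfsf13, which encodes the B cell factor APRIL, was at 0.771 ± 0.140 RPKM in naive brain and 10.1 ± 0.669 in the tumor (adjusted p = 4.45e-08). Tnfsf14, which encodes LIGHT, went from 0.564 ± 0.152 to 8.05 ± 1.20 RPKM (adjusted p = 2.73e-07). Of 11 TNF receptors, 5 were higher, such as the death receptor gene Fas (0.641 ± 0.0846 to 8.54 ± 2.02 RPKM, adjusted p = 7.00e-07), and 4 were lower, such as Tnfrsf17, known as the plasma cell receptor BCMA (20.7 ± 1.21 to 0.974 ± 0.486 RPKM, adjusted p = 2.70e-07). Like Slamf7, 5 of 7 other SLAM family genes were higher, among them Slamf8 (7.61 ± 0.187 to 84.3 ± 14.2 RPKM, adjusted p = 8.00e-08) and Cd244a (0.464 ± 0.0637 to 11.3 ± 1.16 RPKM, adjusted p = 2.42e-08). Of the 8 adaptor genes tested, 6 were higher and 1 lower, with Traf1 at 0.0785 ± 0.0426 and 6.08 ± 0.940 RPKM (adjusted p = 1.15e-07) and Birc3 at 8.46 ± 0.447 and 30.9 ± 2.31 RPKM (adjusted p = 1.50e-07). Cd276, a relative of Cd80 and Cd86 and the 1 gene of its list that passed the filter, fell from 19.0 ± 1.85 to 6.59 ± 3.44 RPKM (adjusted p = 0.00121). All these values are mean ± SD with n = 3.

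At 28 DPI, anti-PD-1 against vehicle gave 10 higher and 3 lower genes among the 34 tested, the combination against vehicle 15 and 7, and the combination against 7aaRGD 13 and 5. Over all 9740 genes the shares called were 23.1%, 43.3% and 36.6% in these comparisons, of which 10.8%, 17.5% and 13.0% of all genes were called as higher. The interaction, the combination against anti-PD-1 and the peptide comparisons of all 3 experiments gave 0 calls in these lists. Slamf8 had the largest rise of the SLAM family list, from 25.9 ± 5.78 RPKM with vehicle (n = 4) to 64.0 ± 2.84 with anti-PD-1 (adjusted p = 0.000124) and 85.9 ± 13.7 with the combination (adjusted p = 2.32e-06, n = 3 each). Cd244a went the other way with the combination, from 12.1 ± 2.14 to 5.59 ± 1.87 RPKM (adjusted p = 0.00277), while Ly9 rose with anti-PD-1 from 31.7 ± 6.32 to 57.8 ± 13.1 RPKM (adjusted p = 0.00335). Tnf, the gene of the ligand of TNFR2, was at 13.8 ± 4.75 RPKM with vehicle, 32.3 ± 16.0 with anti-PD-1 (adjusted p = 0.0261) and 41.2 ± 13.2 with the combination (adjusted p = 0.00232). Tnfsf10, which encodes TRAIL, rose from 2.05 ± 0.196 to 4.97 ± 0.754 RPKM with the combination (adjusted p = 3.31e-05), and Tnfrsf14, the receptor of LIGHT, from 29.6 ± 3.72 to 63.2 ± 8.26 RPKM (adjusted p = 5.72e-05). Among the adaptors, 6 of 9 were higher and 1 lower with the combination. Traf1 rose from 0.573 ± 0.244 to 3.41 ± 0.582 RPKM (adjusted p = 0.000183) and Traf4 fell from 2.42 ± 0.763 to 0.622 ± 0.214 RPKM (adjusted p = 0.000271). Over the 5 lists, the median log2 fold change of the combination against vehicle was 0.044, against 0.44 for the 9 genes and -0.049 for all genes.

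Over the 14 samples at 28 DPI, levels of the genes were compared with each other and with the 9740 tested genes by Pearson's r of log2(RPKM + 1), given as a description, since samples of a group share their treatment. Of the 36 pairs among the 9 tested genes, 29 had a positive and 7 a negative r, and 12 were over 0.5. Cd40 and Slamf7 had the highest, 0.844, followed by Tnfrsf9 with Tnfrsf1b at 0.765 and with Slamf7 at 0.763. After the group means were taken out, 16 of the 36 were positive. Cd40 and Slamf7 were then at 0.448 and Tnfrsf9 and Slamf7 at -0.169, while Cd86 and Icosl rose from 0.516 to 0.957 and Cd86 and Cd83 from 0.512 to 0.771. Cd86 and Icosl, the ligands of CD28 and ICOS, thus varied together among samples of the same group. Their value was the highest of the 36 within groups and is named for that reason. Differences between replicates spanned only 9 of 10 possible dimensions here, which may affect any r within groups.

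The genes most like each of the 9 over these samples were named by the same measure. For Tnfrsf9 they were C1s1 (0.960), Cemip2 (0.956) and Procr (0.953), and for Slamf7 they were Tmem106a (0.975), Ciita (0.963), the master regulator of MHC class II genes, and Chmp5 (0.961). For Cd40 they were Clic4 (0.959), Vasp (0.953) and Crybg1 (0.940), and for Cd86 Armcx2 (0.956), Epb41l2 (0.925) and Lpcat2 (0.913). For Tnfrsf1b they were Alkbh5 (0.947), Chd1 (0.941) and Cdyl2 (0.912), and for Cd80 Btg1 (0.905), Vegfa (0.879) and Sox4 (0.876). The highest values were lower for Tnfsf9 (Kmt2e 0.902, Btbd3 0.871, Smg8 0.870), Icosl (Cd81 0.864, Cttnbp2nl 0.858, Wasf2 0.807) and Cd83 (Ets2 0.839, Pde4b 0.808, Slc3a2 0.801). None of the 10 genes was among the 3 most like another.

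In nude mice with U87-MG tumors, the genes fell into an abundant and a scarce set. Tnfrsf1b, Cd83, Cd86 and Icosl were at 142 ± 7.05, 102 ± 5.52, 39.3 ± 3.19 and 40.2 ± 2.02 RPKM with vehicle (SD, n = 3). Cd40 was at 1.87, 2.59 and 2.98 RPKM, Tnfrsf9 at 0.292, 0.139 and 0.527 RPKM and Slamf7 at 0.415, 0.171 and 0.304 RPKM. The vehicle samples of Cd40 and Slamf7 were thus closer to the naive C57BL/6 samples than to the GL261 tumors, in tables normalized separately. The microglia markers summed to 8369 to 10308 RPKM in these samples and the monocyte and macrophage markers to 1422 to 2479 RPKM. Host, tumor line and the cell types that these sums may reflect cannot be told apart. Replicates of this experiment carry no number in the table and are given in column order.

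Neither peptide gave a call among the 7 genes tested. For 7aaRGD against vehicle 0% of the 9668 genes tested were called and 365 had an unadjusted p under 0.05. For 7aaRAE it was 0.0103%, or 1 gene, with 746, and for 7aaRGD against 7aaRAE 0%, with 327. No gene of the 7 had an unadjusted p under 0.05 in any of the 3. Cd83 had the widest spread, at 95.4, 123 and 159 RPKM with 7aaRGD, against 103, 106 and 95.6 RPKM with vehicle and 99.8, 109 and 101 RPKM with 7aaRAE. Tnfrsf1b was at 152, 154 and 162 RPKM with 7aaRGD, above every vehicle sample, with a 95% interval of the log2 difference from -0.039 to 0.31. Cd80, at 2.85, 2.06 and 3.29 RPKM with 7aaRGD and 2.56, 3.35 and 2.32 RPKM with 7aaRAE, had an interval of the difference between the peptides from -0.33 to 0.31. That of Icosl, at 43.5, 45.7 and 40.0 RPKM and 42.8, 45.4 and 42.8 RPKM, ran from -0.20 to 0.16. Slamf7 was at 0.109, 0.132 and 0.235 RPKM with 7aaRGD and at 0.0953, 0.0791 and 0.0944 RPKM with 7aaRAE, under the filter and without a test. The summed NK cell markers in the same groups were 6.44 to 17.4 RPKM with vehicle, 1.20 to 5.87 with 7aaRGD and 0.182 to 1.66 with 7aaRAE. Only 2 of the 6 NK cell markers passed the filter. No marker gene of any cell type list was called in the 3 comparisons with U87-MG. The part of NK cells in the Slamf7 values was not tested.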

How the data were processed

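RNA of CD11b+ cells was read from 3 deposited tables. The study's methods name Trimmomatic for trimming, STAR for alignment (mm10), Picard for duplicates, HTSeq 0.11.1 for stranded counts per gene and NOISeq for the authors' own tests. The deposited values were taken as RPKM plus a constant of 2, as read from the values: after the constant was subtracted, values times exonic length summed to between 98.8% and 100.7% of the same total in every sample. Between 3.13% and 8.78% of the values of each sample, over all rows, were under the constant and were set to 0. The normalization, and any step that gave values under the constant, are not given in the sources used here. Differences between replicates spanned 7 of 8 possible dimensions at 21 DPI and 9 of 10 at 28 DPI with GL261, and 6 of 6 with U87-MG, so p-values of the GL261 tables may be too small. A fit with 1 residual degree of freedom fewer was among the alternatives for this reason. Depth is unknown.

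Symbols were matched to the annotation for 98.9% of the 54513 rows, of which 21908 were protein-coding genes. The limma package 3.58.1 (R 4.3.3, lmFit and eBayes with trend) was run on log2(RPKM + 1) of genes that averaged 1 RPKM or more, with Benjamini-Hochberg adjustment over all genes tested and a threshold of 0.05, in 13 comparisons. Tumor groups of a table were fitted together, and naive mice with vehicle alone. A fold change on this scale understates the change of low genes. The scripts were tested on simulated data. Replicates are separate pools or animals as the study states it. Members and gene lists were chosen with earlier results of these data known. A log2 fold change with its error was printed only where the unadjusted or adjusted p was under 0.05. Up to 2 called genes with the largest change were named per family list, and the 3 genes with the highest correlation per member. Alternatives were pseudocounts of 0.1 and 5, no filter or a mean of 5 RPKM, median-of-ratios scaling, all named rows, values under the constant kept, the replicate number as a block, other sets of groups in the fit, each sample left out, and a noise test modelled on NOISeq, with calls at a probability over 0.8. Promoters came from RefSeq tables of GRCm38.p6.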

Additional observations from a re-analysis of the deposited data

Results flagged for a closer look

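Cd83 in the 7aaRGD group of GL261 tumors at 28 DPI had 1 sample apart from the others. The lowest sample was at 30.9 RPKM, while the other 3 were at 43.5, 44.3 and 45.2 RPKM, so that its gap to the nearest took a share of 0.876 of the whole range, over Dixon's 95% critical value for 4 samples. Levels of the 10 genes in the groups with 4 samples gave 20 such sets, and chance alone flags about 1 in 20. The vehicle samples of Cd83 in the same experiment ran from 30.5 to 78.6 RPKM.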

How the results depend on the processing

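The number of called genes among the 10 was within 1.5 times its main value in 209 counts under alternatives and not in 17. For anti-PD-1 against vehicle (3 called) it was 1 without a filter on low values and 1 with the replicate block. For the combination against anti-PD-1 (1 called) it was 0 with a pseudocount of 0.1, a filter at a mean of 5 RPKM (which removes the called gene Tnfrsf9), all named rows, the replicate block, 1 residual degree of freedom fewer, or only the 2 groups compared, and 0 to 1 with each sample left out. For the interaction (0 called) it was 0 to 1 with each sample left out, the 1 coming without combination sample 2. The noise test gave 3 for 7aaRGD (Cd80, Cd83, Icosl) and 1 for 7aaRAE (Cd40) against vehicle at 21 DPI and 1 for 7aaRGD at 28 DPI (Cd83), each 0 with limma, and 2 for the combination against anti-PD-1 (Tnfrsf9, Cd83). It did not call Tnfrsf9 for anti-PD-1 against vehicle or Cd80 for the combination against 7aaRGD. Log2 fold changes of single genes kept their direction and side of the threshold in 478 fits, lost the call in 34, gained it in 6 and reversed in 0. The cause of these changes was not tested.

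Deviations of samples with the same replicate number correlated over 0.1 in 1 of 9 pairs at 21 DPI and 3 of 19 at 28 DPI. Their r ran from -0.772 to 0.118 at 21 DPI and from -0.499 to 0.366 at 28 DPI. Differences between replicates did not span all possible dimensions in either GL261 experiment, so these values cannot decide whether the numbers pair the samples. The replicate block moved the count of called members by over 1.5 times only in the 2 comparisons named above. With it, the calls of Tnfrsf1b in vehicle against naive mice (adjusted p = 0.0661), of Tnfrsf9 (0.0720) and Cd40 (0.0893) in anti-PD-1 against vehicle, and of Tnfrsf9 in the combination against anti-PD-1 (0.107) were lost. No paired analysis was possible for U87-MG because its columns carry no numbers.

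Over all genes, limma called 8062 for vehicle against naive mice (5289 to 9919 under alternatives, 5937 by the noise test), 14 for 7aaRGD at 21 DPI (0 to 125, 383), 63 for 7aaRGD at 28 DPI (0 to 93, 221), 2246 for anti-PD-1 (1356 to 2394, 1206), 4215 for the combination against vehicle (2942 to 4844, 2042), 3560 against 7aaRGD (2549 to 3818, 1452) and 4 against anti-PD-1 (0 to 26, 414). For 7aaRAE at 21 DPI and 7aaRGD against 7aaRAE it called 0 (0 to 2, 245, and 0 to 7, 136), for the interaction 0 (0 to 3) and with U87-MG 0 for 7aaRGD, 1 for 7aaRAE and 0 between the peptides (0 to 2, 236; 0 to 32, 383; 0 to 3, 108). Depth is unknown, so low levels such as those of Tnfsf4 have no counting limit, and with 3 or 4 samples per group a missed call leaves differences within the intervals given.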
